A study of Mus musculus with 4 samples.

Results

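The S100 calcium-binding genes were followed across the cell types of mouse lung tumors. The 8 genes S100a1, S100a4, S100a6, S100a8, S100a9, S100a10, S100a11 and S100a13 were taken by their symbols from the 31055 features of the count matrix, and all 8 were present. Their level was read as unique molecular identifiers (UMIs, 1 per captured RNA molecule) summed over the cells of a type and divided by all UMIs of those cells, in the usual scaled unit (CPM). Total viable cells, sorted with DAPI only, came from microdissected lung tumors of 4 female mice, 16 weeks after intratracheal Lenti-Cre. Their age was not stated in the labels. All mice carried Lkb1XTR/XTR. At Rosa26 the 2 Restored mice carried LSL-tdTomato/FLPo-ERT2, and the 2 Non-Restored mice carried LSL-tdTomato without FLPo-ERT2, the tamoxifen-dependent recombinase that restores Lkb1. By the sample labels all 4 mice received tamoxifen (4 mg doses) for 2 weeks, so that both groups share the Lkb1XTR allele and the drug. The series' design text also names a vehicle, and which mice received it is not given there. The deposited matrix gives each cell a number, with no mouse and no barcode, so barcodes shared between libraries could not be counted. It therefore counts as 1 sample: Restored and Non-Restored were not compared, no p-value is given, and differences between cell types and between the mice that supplied them cannot be told apart.

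S100 proteins are small calcium-binding proteins of vertebrates that mostly act as dimers, in which binding of calcium exposes a surface for other proteins. Inside the cell they bind annexins, cytoskeletal proteins and other targets, and some are released and act on receptors such as RAGE and TLR4. S100A8 and S100A9 together form calprotectin, a zinc- and manganese-binding complex that fills the cytosol of neutrophils, and most S100 genes lie side by side in a cluster conserved among mammals.

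The matrix held 20351 cells with 58624795 UMIs (median 1960 per cell), of which 19488 passed the filters. Cell types were gated by markers that included no S100 gene. A cell entered a gate with at least 2 distinct markers of its list and at least 3 times the UMIs of any other list with 2 or more markers. This placed 15708 cells (80.6%) in the 17 gates, 16 of them with 50 cells or more, while a ciliated or club cell gate of 6 cells was not used. The gates carry the suffix -like because they rest on these lists, and a marker was counted as detected in at least 10% of a gate's cells. All markers were detected except 1 of 4 in classical monocyte-like and 1 of 7 in alveolar macrophage-like cells. The 8 members accounted for 1.14% of the UMIs of the kept cells. Intervals are exact 95% intervals (Poisson for a level, Clopper-Pearson for a share, conditional binomial for a ratio) and cover counting error only.

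All 8 members are protein-coding genes on chromosome 3 of mm10, within 3054 kb. S100a1 (chr3:90511034-90514392, minus strand) and S100a13 (chr3:90514435-90524581, plus strand) start 42 bases apart and run away from each other. S100a4 (chr3:90603771-90606045), S100a6 (chr3:90612882-90624181) and S100a8 (chr3:90668978-90670035) follow on the plus strand. S100a9 (chr3:90692632-90695721) is on the minus strand, its end 22596 bases from that of S100a8. S100a11 (chr3:93520488-93526287) and S100a10 (chr3:93555080-93564643), both on the plus strand, lie a further 2824766 bases away. S100a11 has a pseudogene, S100a11-ps, on chromosome 12, so part of its reads could be ambiguous. Sequence upstream of the gene starts is shown for S100a8 and S100a9, which stood far above the other members in a single cell type, for S100a6, which spanned the widest range among the members at 50 CPM or more in all 16 types, and for the stretch shared by S100a1 and S100a13. The sequences come from RefSeq promoter entries (GRCm38.p6), which matched 7 of the 8 members, and hold no transcribed base. They lie at chr3:90668821-90668977 (plus strand), chr3:90695722-90695971 (minus strand), chr3:90612644-90612881 (plus strand) and chr3:90514393-90514434 (plus strand), in the order printed, and capitals mark a match to the C/EBP motif.
S100a8: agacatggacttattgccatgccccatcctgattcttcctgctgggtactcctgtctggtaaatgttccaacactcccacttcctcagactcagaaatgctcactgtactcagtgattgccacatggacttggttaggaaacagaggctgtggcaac
S100a9: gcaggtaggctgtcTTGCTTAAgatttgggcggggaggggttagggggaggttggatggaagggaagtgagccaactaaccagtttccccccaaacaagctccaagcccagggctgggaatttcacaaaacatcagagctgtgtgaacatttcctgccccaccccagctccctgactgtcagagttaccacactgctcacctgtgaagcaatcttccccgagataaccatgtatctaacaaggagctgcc
S100a6: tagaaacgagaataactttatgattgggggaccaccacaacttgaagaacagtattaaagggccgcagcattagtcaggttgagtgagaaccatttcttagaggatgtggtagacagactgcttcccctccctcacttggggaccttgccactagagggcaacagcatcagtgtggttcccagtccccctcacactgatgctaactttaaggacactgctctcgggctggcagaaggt
S100a1-S100a13 gap: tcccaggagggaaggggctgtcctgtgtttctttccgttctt
The C/EBP motif was searched as TTNNGCAA and the AP-1 motif as TGANTCA on both strands of the 300 bases around each start, and the letters of the 2 motifs do not overlap in any member. C/EBP letters occurred in 10.8% of 32851 promoter windows and, among the members, in that of S100a9. AP-1 letters occurred in 7.81% of the windows and, among the members, in that of S100a11. A match is a description of these letters only.

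The 8 genes peaked in 5 different cell types. S100a6, S100a8, S100a9 and S100a11 were highest in neutrophil-like cells, S100a1 in alveolar macrophage-like cells, S100a4 in mature dendritic cell (DC)-like cells, S100a10 in natural killer (NK) cell-like cells and S100a13 in endothelial-like cells. Each gene kept its top type in all 9 alternative settings of filter, gate and scale. S100a6, S100a10, S100a11 and S100a13 were at 50 CPM or more in all 16 types, S100a1, S100a4 and S100a8 in 10 of them and S100a9 in 9. Among the genes found in every type, the highest type stood above the lowest by 5.68-fold for S100a13, 11.9-fold for S100a10 and 87.6-fold for S100a6.

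**Figure D1:**
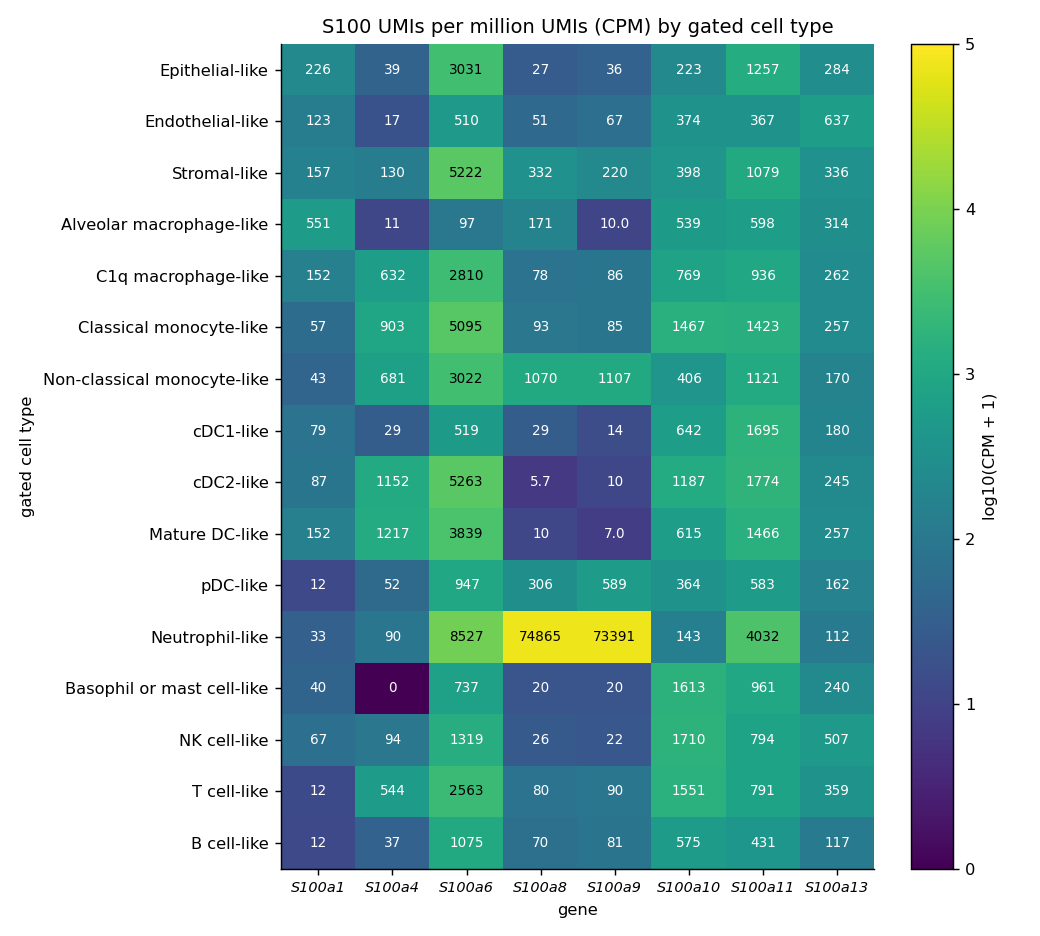
Level of the 8 S100 genes in 16 gated cell types. Rows are cell types, columns are genes, the number is the CPM and the color is log10(CPM + 1). S100a8 and S100a9 reach 74865 and 73391 CPM in neutrophil-like cells and stay at or under 1107 CPM in the other 15 types.

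S100a8 and S100a9, the calprotectin subunits, made up 14.8% of all UMIs of the 1640 neutrophil-like cells. S100a8 was at 74865 CPM (74488 to 75244) and S100a9 at 73391 CPM (73017 to 73766). With cells brought down to 1000 UMIs by random thinning, 97.2% of the 677 neutrophil-like cells of that depth carried an S100a8 UMI and 97.6% an S100a9 UMI. From the 10th to the 90th percentile of cells, S100a8 ranged from 5570 to 163367 CPM and S100a9 from 9373 to 147731 CPM. Of the 1640 cells, 1511 (92.1%) held at least 10 UMIs of the 2 genes together, and these cells held 99.9% of the UMIs. The other neutrophil-like cells, which this cut limits to fewer than 10 such UMIs, had 1263 CPM of S100a8 and 1950 CPM of S100a9.

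Free RNA in droplets gives UMIs to cells that do not make a gene, so the levels outside the neutrophil-like gate were set beside types that should lack both genes. B-like, T-like and endothelial-like cells served as this background, and 2.83%, 2.36% and 2.58% of them carried an S100a8 UMI after thinning to 1000 UMIs (4.16%, 4.17% and 4.92% unthinned, at median depths of 1370, 1632 and 1862.5 UMIs). The S100a9 shares in these types lay between 2.51% (T-like) and 3.13% (endothelial-like). Summed levels were higher than these shares imply, because a few cells held most of the UMIs. Of the 4312 T-like cells, 18 held 71.0% of the S100a8 and S100a9 UMIs, of the 2069 B-like cells 5 held 57.0%, and of the 1793 C1q macrophage-like cells 14 held 80.3%. In stromal-like and in plasmacytoid DC (pDC)-like cells, 1 cell held 89.7% and 94.8%. With the cells of 10 or more such UMIs left out, a step added after the values were seen, S100a8 fell from 80.4 to 25.5 CPM in T-like cells, from 70.4 to 29.9 CPM in B-like cells, from 78.0 to 19.6 CPM in C1q macrophage-like cells and from 332 to 25.2 CPM in stromal-like cells. Because this cut was made on the same 2 genes, a low remainder follows from it. These levels therefore cannot tell background from a few cells that make the genes. C1q macrophage-like cells without the rich cells had 1.52 (1.17 to 1.98) S100a8 UMIs per S100a9 UMI. Whether the rich cells were droplets of 2 cells was not tested.

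In alveolar macrophage-like cells S100a8 lay above the B-like, T-like and endothelial-like background. S100a9 lay below it in CPM and in thinned share, both taken relative to all UMIs. Unthinned, 4.57% of these deeper cells carried an S100a9 UMI, against 4.06% of T-like, 4.35% of B-like and 4.98% of endothelial-like cells. S100a8 was at 171 CPM (163 to 180, from 1495 UMIs) and S100a9 at 9.98 CPM (7.99 to 12.3, from 87 UMIs) in 1555 cells. The S100a8 to S100a9 UMI ratio was 17.2 (13.8 to 21.6), against 1.02 (1.01 to 1.03) in neutrophil-like, 0.87 (0.73 to 1.03) in B-like, 0.90 (0.81 to 1.00) in T-like and 0.76 (0.62 to 0.92) in endothelial-like cells. Without a lead between gates the log2 ratio in alveolar macrophage-like cells was 2.68, against 4.10 in the main setting. Over all UMIs the ratio was 0.75 (0.57 to 0.98) in epithelial-like, 0.52 (0.37 to 0.73) in pDC-like and 1.51 (1.16 to 1.97) in stromal-like cells. Most of these UMIs came from 4 cells in epithelial-like and 1 cell in pDC-like and in stromal-like cells. Without the cells of 10 or more such UMIs, the epithelial-like ratio was 0.68 (0.39 to 1.15). The pDC-like ratio was then 1 (0.19 to 5.37) and the stromal-like ratio 0.79 (0.32 to 1.86), and each of these intervals included 1. In alveolar macrophage-like cells it was then 18.9 (14.9 to 24.2). The part of free RNA in these ratios was not tested. S100a8 UMIs were spread over many cells: 740 cells (47.6%) had at least 1, of which 397 had a single UMI, 169 had 2, 123 had 3 or 4, 43 had 5 to 9 and 8 had 10 or more. After thinning to 1000 UMIs the share of cells with a UMI lay between 12.3 and 15.8% (215 of 1535 cells) for S100a8 and 1.24% (0.75 to 1.93) for S100a9, at a median depth of 5590 UMIs before thinning. S100a8 reached 0.229% of its neutrophil-like level here and S100a9 0.0136%. Other genes known from neutrophils, none of them used by a gate, also reached unlike shares of their neutrophil-like level. Some were not particular to that gate. Hdc was at 8014 CPM in basophil or mast cell-like and 1669 CPM in neutrophil-like cells. Cd177 reached 70.9% of its neutrophil-like level in classical and Il1b 30.6% in non-classical monocyte-like cells. In alveolar macrophage-like cells the shares were as follows. The granule genes Ngp and Camp and the stefin gene Stfa2l1 reached 0.0278%, 0.0205% and 0.0211%, Hdc reached 0.0206% and BC100530 had 0 UMIs. Cd177 reached 0.158% from 2 UMIs, G0s2 1.31%, Il1b 4.68%, Mmp8 6.38% and Wfdc21 25.6%. The shares of the same genes were unlike in T-like cells too, from 0.0690% (Stfa2l1) to 0.504% (Il1b). Whether alveolar macrophage-like cells make these genes was not tested. Without the 9 cells of 10 or more UMIs, S100a8 was at 161 CPM and S100a9 at 8.54 CPM.

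**Figure D2:**
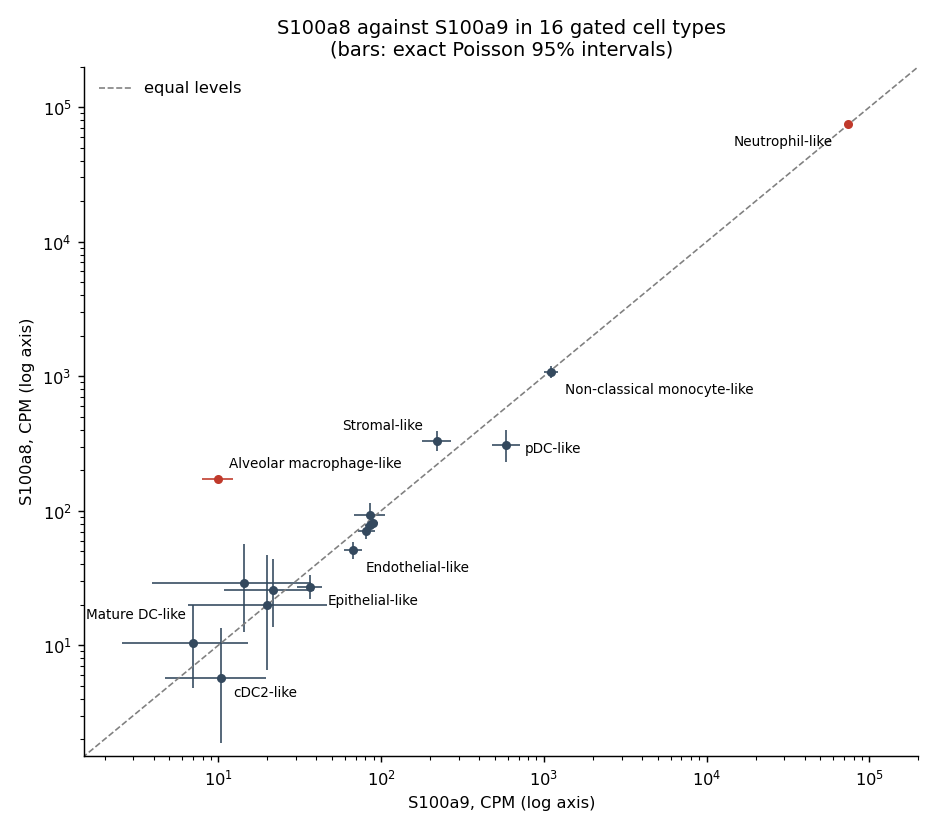
S100a8 (vertical axis) against S100a9 (horizontal axis) in CPM on log axes for 16 gated cell types, with exact Poisson 95% intervals and a dashed line of equal levels. Most types lie near the line, while the alveolar macrophage-like point (171 against 9.98 CPM) lies far above it.

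**Figure D3:**
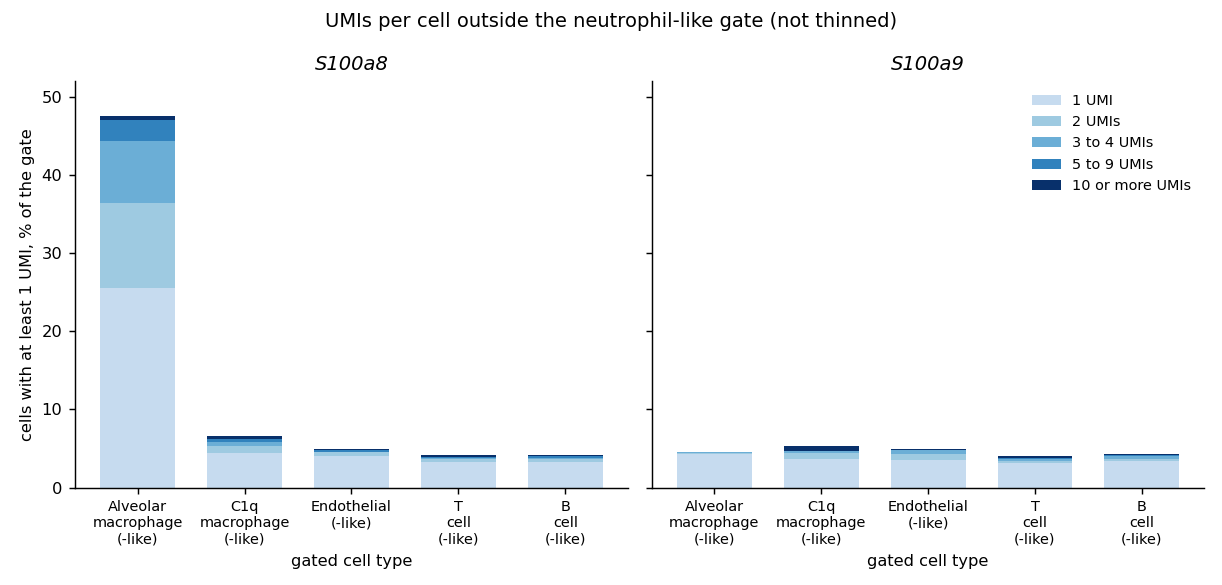
Share of cells with at least 1 UMI of S100a8 (left) or S100a9 (right) in 5 gated types, in percent of the gate and without thinning, colored by the number of UMIs in the cell. S100a8 is found in 47.6% of alveolar macrophage-like cells and 4.17% of T-like cells, while S100a9 is found in 4.57% and 4.06%.

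In monocyte-like cells the calprotectin genes stood far below the neutrophil-like level. S100a8 was at 93.0 CPM in the 324 classical and at 1070 CPM in the 167 non-classical monocyte-like cells, but 8 cells held 96.3% of the S100a8 and S100a9 UMIs of the latter. Without cells of 10 or more such UMIs, S100a8 was at 34.5 CPM (23.9 to 48.2) and 36.3 CPM (18.8 to 63.5). S100a9 was then at 15.2 CPM (8.52 to 25.1) and 48.4 CPM (27.7 to 78.7). The thinned shares of cells with an S100a8 UMI were 4.69% (2.65 to 7.61) and 6.79% (3.44 to 11.8). Cells of 10 or more such UMIs were not left out of these shares. The background intervals were 2.10 to 3.73% in B-like (2.83%), 1.91 to 2.88% in T-like (2.36%) and 1.87 to 3.47% in endothelial-like cells (2.58%). The classical interval overlapped each of them. The non-classical interval overlapped the B-like and endothelial-like intervals and lay above the T-like one. In cDC2-like and mature DC-like cells S100a8 was at 5.75 and 10.4 CPM and S100a9 at 10.3 and 6.97 CPM, from 5 to 9 UMIs each.

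S100a6 (calcyclin), a binding partner of CACYBP and annexins, was the most abundant member in 10 of the 16 types. It was at 8527 CPM (8400 to 8655) in neutrophil-like cells, followed by cDC2-like (5263), stromal-like (5222) and classical monocyte-like cells (5095), which did not differ beyond counting error from neighbor to neighbor. Mature DC-like cells had 3839 CPM, epithelial-like cells 3031 CPM, non-classical monocyte-like cells 3022 CPM, C1q macrophage-like cells 2810 CPM and T-like cells 2563 CPM. Below these came NK-like (1319), B-like (1075), pDC-like (947), basophil or mast cell-like (737), cDC1-like (519) and endothelial-like cells (510). Alveolar macrophage-like cells were lowest at 97.4 CPM (90.9 to 104), 2.39 log2 units (2.27 to 2.51) below the endothelial-like level. The 2 macrophage gates lay far apart: at a depth of 1000 UMIs, the share of cells with S100a6 was 6.25% in the alveolar and 69.0% in the C1q gate. Levels within a type were uneven as well, for the median epithelial-like cell had 344 CPM and the median classical monocyte-like cell 4678 CPM.

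S100a11 (calgizzarin), which binds annexin A1, had the same top type with a smaller range. Neutrophil-like cells had 4032 CPM (3945 to 4120), more than cDC2-like (1774), cDC1-like (1695), mature DC-like (1466) and classical monocyte-like cells (1423). Epithelial-like cells had 1257 CPM, non-classical monocyte-like cells 1121 CPM, stromal-like cells 1079 CPM, basophil or mast cell-like cells 961 CPM and C1q macrophage-like cells 936 CPM. NK-like (794), T-like (791), alveolar macrophage-like (598), pDC-like (583), B-like (431) and endothelial-like cells (367) closed the order. Of the 15 neighboring pairs, 8 had a ratio with an interval that excluded equality.

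S100a4 is known for its binding to non-muscle myosin and for its use as a fibroblast and metastasis marker. In this matrix it was highest in mature DC-like, cDC2-like, monocyte-like, C1q macrophage-like and T-like cells, but not in all myeloid gates. Mature DC-like cells had 1217 CPM (1144 to 1293) and cDC2-like cells 1152 CPM (1082 to 1226), a pair that did not differ beyond counting error, while cDC1-like cells had 28.9 CPM (12.5 to 56.9). Classical monocyte-like cells had 903 CPM, non-classical monocyte-like cells 681 CPM, C1q macrophage-like cells 632 CPM and T-like cells 544 CPM. Below a step of 2.07 log2 units (1.69 to 2.47) followed stromal-like cells with 130 CPM (98.1 to 168), NK-like (94.3), neutrophil-like (89.8), pDC-like (51.9), epithelial-like (38.8), B-like (36.9) and endothelial-like cells (17.5). Alveolar macrophage-like cells were again low at 10.8 CPM (8.71 to 13.2). Basophil or mast cell-like cells had 0 UMIs, which allows up to 12.0 CPM. The epithelial-like level rested on cells that also carried leukocyte genes, as described for the epithelium.

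S100a10 (p11), which forms a tetramer with annexin A2 at the plasma membrane, followed another order, with NK-like and T-like cells high and neutrophil-like cells lowest. NK-like cells had 1710 CPM (1598 to 1827), basophil or mast cell-like cells 1613 CPM (1460 to 1779) and T-like cells 1551 CPM (1524 to 1578), and these neighbors did not differ beyond counting error, followed by classical monocyte-like (1467) and cDC2-like cells (1187). C1q macrophage-like (769), cDC1-like (642), mature DC-like (615), B-like (575) and alveolar macrophage-like cells (539) were intermediate. The lowest levels were found in non-classical monocyte-like (406), stromal-like (398), endothelial-like (374), pDC-like (364), epithelial-like (223) and neutrophil-like cells (143, interval 127 to 161). Neutrophil-like cells thus had the highest S100a11 and the lowest S100a10 of the 16 types. Its partner Anxa2 was at 1004 CPM in alveolar macrophage-like, 894 CPM in neutrophil-like and 122 CPM in T-like cells, so that partner and member did not share an order.

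S100a13, which takes part in the non-classical release of FGF1 and IL-1alpha, was highest in endothelial-like cells at 637 CPM (611 to 663), above NK-like cells (507) by 0.33 log2 units (0.14 to 0.52). T-like (359), stromal-like (336), alveolar macrophage-like (314), epithelial-like (284), C1q macrophage-like (262), classical monocyte-like (257), mature DC-like (257), cDC2-like (245) and basophil or mast cell-like cells (240) formed a flat middle in which most neighbors did not differ beyond counting error. cDC1-like (180), non-classical monocyte-like (170), pDC-like (162), B-like (117) and neutrophil-like cells (112) were lower. Within the endothelium S100a13 was even: general capillary cells had 647 CPM, Vwf-positive cells 580 CPM and aerocyte-like cells 543 CPM, and the log2 ratios to general capillary cells were -0.16 (-0.34 to 0.02) and -0.25 (-0.57 to 0.05).

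S100a1, best known as a regulator of calcium handling in heart muscle, marked alveolar macrophage-like cells. Its level there was 551 CPM (535 to 567), 1.29 log2 units (1.18 to 1.39) above epithelial-like cells at 226 CPM (211 to 242). Stromal-like (157), C1q macrophage-like (152) and mature DC-like cells (152) did not differ from each other beyond counting error, and endothelial-like cells had 123 CPM. The other types had 87.4 CPM or less, down to 12.4 CPM in T-like and 11.5 CPM in B-like cells. At a depth of 1000 UMIs an S100a1 UMI was present in 33.8% of cells in the alveolar macrophage-like gate, 13.3% in the C1q gate and 1.03% in the T-like gate. Although S100a1 and S100a13 start 42 bases apart on opposite strands, with the short gap printed above between them, S100a13 was higher than S100a1 in 15 of the 16 types, and the Pearson correlation of their log2(CPM + 10) over the 16 types was 0.46.

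The epithelial-like gate held 892 cells, among them cells with alveolar type II (ATII) genes and cells with Hopx, a gene of alveolar type I (ATI) and transitional cells. It was split into 284 cells with a Hopx UMI and 608 cells with none, to ask which S100 genes differ along the alveolar identity axis. S100a6 was at 5219 CPM (5076 to 5365) in Hopx-positive and 2242 CPM (2186 to 2299) in Hopx 0 cells, a log2 ratio of 1.22 (1.16 to 1.27). S100a11 was at 2012 CPM (1924 to 2104) and 985 CPM (947 to 1023), a log2 ratio of 1.03 (0.95 to 1.12). These 2 of the 5 members tested (genes at 50 CPM or more in either group) were called higher, that is by 2-fold or more with an interval off 0, and none was called lower. Among all 2682 genes tested, 4.33% were called higher and 3.09% lower. S100a13 (0.56, 0.38 to 0.75), S100a10 (0.28, 0.06 to 0.50) and S100a1 (0.26, 0.04 to 0.47) had smaller ratios with intervals above 0. The median log2 ratio of the 5 members was 0.56 and that of all genes tested 0.11. After thinning to 1000 UMIs, S100a6 was found in 74.5% (69.0 to 79.6) of Hopx-positive and 31.2% (27.5 to 35.2) of Hopx 0 cells, and the median depths before thinning were 3016 and 4295.5 UMIs. The call for S100a11 lies at the edge of 2-fold. It was lost with a minimum of 500 genes, without a lead between gates and without upper caps, where the log2 ratio was lowest at 0.80. S100a6 was called in all 12 alternatives, with log2 ratios from 1.01 to 1.53.

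ATII genes moved with this split: 41.2% of Hopx-positive and 14.1% of Hopx 0 cells had under 20000 CPM of the 10 ATII genes. This cut was placed after the values were seen, 57 cells lay within 2-fold of it, and the median cell had 128340 CPM. S100a6 was at 579 CPM (549 to 611) in ATII-high Hopx 0, 2758 CPM in ATII-high Hopx-positive, 10796 CPM in ATII-low Hopx-positive and 14170 CPM in ATII-low Hopx 0 cells. Within ATII-high cells the Hopx-positive level was higher by 2.25 log2 units (2.15 to 2.35), and within ATII-low cells the Hopx 0 level was higher by 0.39 (0.33 to 0.46). S100a11 took the values 640, 1326, 3567 and 3458 CPM in the same order of groups, S100a10 the values 91.5, 122, 562 and 1067 CPM and S100a13 the values 215, 291, 555 and 517 CPM. S100a1 spanned the smallest range, with 194, 232, 313 and 365 CPM. Over the ATII split alone, S100a6 was at 12569 CPM in the 203 ATII-low cells and 1063 CPM in the 689 ATII-high cells, a log2 ratio of 3.56 (3.50 to 3.62).

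Across this ATII split S100a10 had a log2 ratio of 3.07 (2.87 to 3.28), S100a11 of 2.15 (2.06 to 2.23), S100a13 of 1.21 (1.02 to 1.40) and S100a1 of 0.75 (0.52 to 0.98). In all, 7 of 8 members were called higher in ATII-low cells, where 14.3% of 2974 genes tested were called higher and 8.44% lower. S100a4, S100a8 and S100a9 reached 50 CPM only in ATII-low cells, so that a lower call was not possible for them and the count is no support for a direction. Leukocyte genes moved with the split as well. The sum of Ptprc, Tyrobp, Cd52, Laptm5, Lsp1 and Coro1a was 77.5 CPM in ATII-high and 1892 CPM in ATII-low cells, and in ATII-low Hopx 0 cells it reached 3109 CPM with 3404 CPM of TdTomato, the reporter of Cre recombination, against 5728 CPM in ATII-low Hopx-positive cells. Leaving out the 64 cells with 2 or more UMIs of these 6 genes took S100a4 in ATII-low cells from 209 to 6.68 CPM (1.38 to 19.5), S100a8 from 68.7 to 6.68 CPM and S100a9 from 115 to 15.6 CPM. S100a6 was then at 14730 CPM, against 1035 CPM in ATII-high cells, a log2 ratio of 3.83 (3.77 to 3.89). S100a11 (2.34, 2.25 to 2.43), S100a10 (2.95, 2.71 to 3.19) and S100a13 (1.44, 1.23 to 1.64) also kept their differences, so that 4 of the 7 calls remained. The highest S100a6 level among the epithelial groups was then that of the 55 ATII-low Hopx 0 cells at 19798 CPM (19154 to 20457), against 8527 CPM in neutrophil-like cells.

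**Figure D4:**
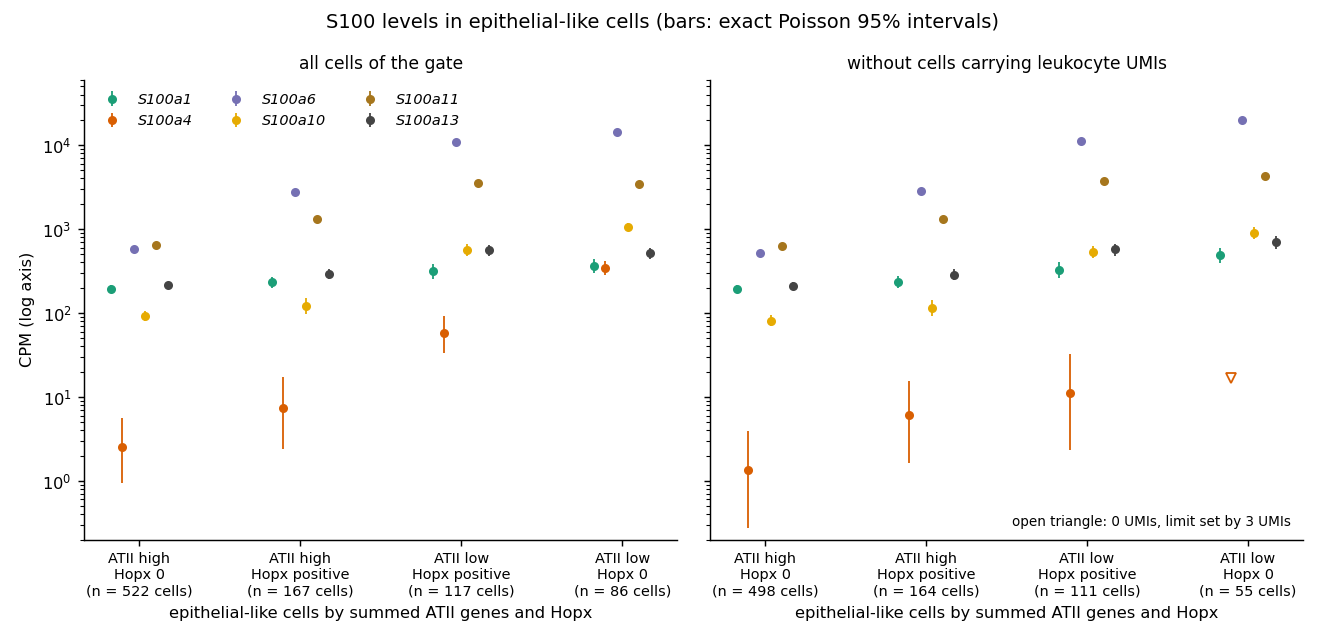
Level in CPM (log axis) of 6 S100 genes in epithelial-like cells grouped by summed ATII genes and Hopx, for all cells (left) and without the cells that carry leukocyte UMIs (right). Points are summed levels with exact Poisson 95% intervals, and the open triangle is the limit that 0 UMIs allow. S100a6 spans 579 to 14170 CPM on the left and 513 to 19798 CPM on the right, whereas S100a4 in ATII-low Hopx 0 cells is at 346 CPM on the left and has 0 UMIs on the right.

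In T-like cells the members separated naive-like cells (at least 2 genes of a naive T-cell list) from effector-like cells (at least 2 of Nkg7, Ccl5, Cxcr6, Cxcr3, Id2 and Maf), each without a gene of the other list. S100a6 was at 160 CPM (132 to 192) in 429 naive-like and 4676 CPM (4588 to 4766) in 1072 effector-like cells, a log2 ratio of 4.87 (4.61 to 5.15). S100a4 was at 47.2 CPM and 999 CPM (958 to 1041), a log2 ratio of 4.40 (3.92 to 4.94). S100a11 was at 196 and 1253 CPM (2.68, 2.43 to 2.93), S100a10 at 587 and 2137 CPM (1.86, 1.72 to 2.01) and S100a13 at 179 and 531 CPM (1.57, 1.30 to 1.84). With S100a9, 6 of 7 members tested were called higher and none lower, where 21.0% of all 2548 genes tested were called higher and 4.51% lower. S100a4 and S100a9 reached 50 CPM only in effector-like cells, so that a lower call was not possible for them and the count is no support for a direction. S100a9 (117 against 47.2 CPM, a log2 ratio of 1.31) lay in the range where few rich cells hold most UMIs. Without Scrublet calls its log2 ratio was 0.45, under the 2-fold threshold. S100a8 (0.68, 0.20 to 1.18) changed sign when Scrublet calls were left out (-0.37). Median depths were close, at 1620 and 1801.5 UMIs.

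S100a6 and S100a4 were also compared inside the CD4 and the CD8 compartment. In CD8 cells S100a6 was at 140 CPM in 77 naive-like and 3813 CPM in 102 effector-like cells, a log2 ratio of 4.76 (4.14 to 5.46). In CD4 cells it was at 445 CPM in 65 naive-like and 3387 CPM in 133 effector-like cells, a log2 ratio of 2.93 (2.52 to 3.37), and S100a4 was at 71.2 and 1033 CPM (3.86, 2.86 to 5.08). T-like cells with a Foxp3 UMI (253 cells), which marks regulatory T cells, had the highest S100a10 of the T-cell states at 3286 CPM, with 3687 CPM of S100a6. T-like cells with a Trdc UMI (257 cells), the constant chain of the gamma-delta receptor, had the highest S100a6 at 8114 CPM (7854 to 8380), and 1166 CPM of S100a4. The 117 proliferating T-like cells had more S100a10 than the rest, at 2943 against 1435 CPM (1.04, 0.96 to 1.11). S100a6 was at 2685 against 2553 CPM (a log2 ratio of 0.07 with an interval that included 0). Summed S100a8 was at 19.6 against 85.4 CPM and S100a9 at 13.1 against 95.8 CPM. Of all T-like cells, however, 18 held 71.0% of the UMIs of these 2 genes. Without them the whole T-like gate had 25.5 CPM of S100a8 and 23.9 CPM of S100a9, and the proliferation difference was not recomputed.

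**Figure D5:**
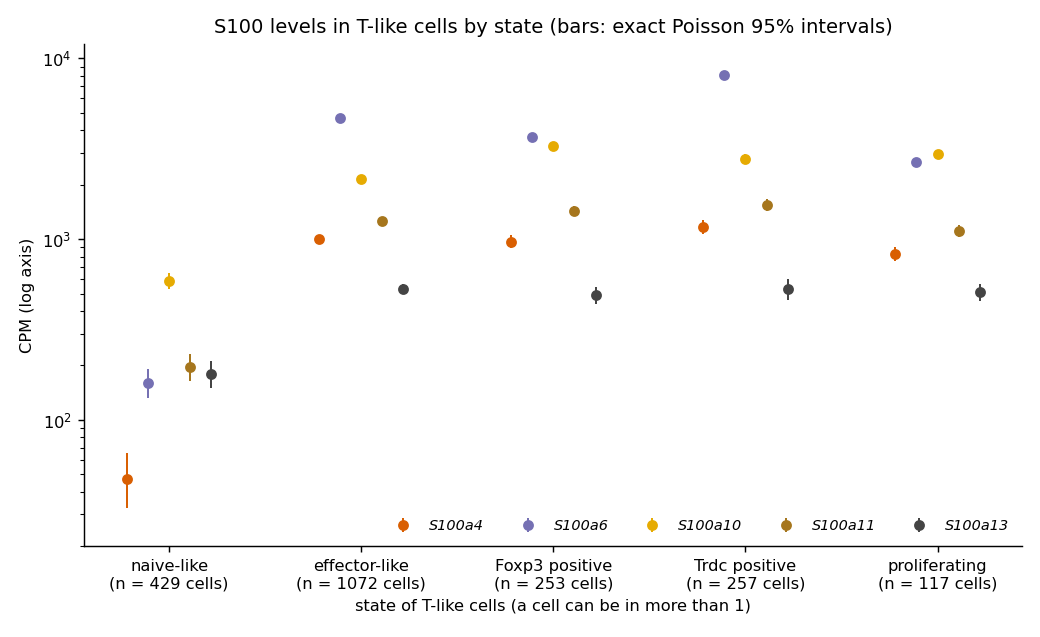
Level in CPM (log axis) of 5 S100 genes in states of T-like cells, with exact Poisson 95% intervals. A cell can belong to more than 1 state. Naive-like cells are lowest for all 5 genes, and S100a6 ranges from 160 CPM in naive-like to 8114 CPM in Trdc-positive cells.

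Between the monocyte states S100a10 differed most clearly. It was at 1467 CPM (1393 to 1544) in classical and 406 CPM (342 to 478) in non-classical monocyte-like cells, a log2 ratio of 1.85 (1.61 to 2.11). S100a6 (0.75, 0.66 to 0.85), S100a13 (0.59, 0.18 to 1.02), S100a4 (0.41, 0.20 to 0.62) and S100a11 (0.34, 0.18 to 0.51) were higher in classical cells by less than 2-fold. Of 8 members tested, 1 was called higher and 2 lower, and the backgrounds over 3244 genes were 4.81% higher and 15.0% lower. The 2 lower calls were S100a8 (-3.52) and S100a9 (-3.70). Without the rich cells S100a8 was at 34.5 and 36.3 CPM, with overlapping intervals, and S100a9 at 15.2 and 48.4 CPM, with intervals that did not overlap.

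Alveolar macrophage-like cells were split by the Cre reporter, since 1443 of them had at least 2 TdTomato UMIs and 76 had none. No member was called in either direction (0 of 6 tested), where 0.769% of 3121 genes tested were called higher and 0.705% lower. S100a1 was lower with the reporter, at 535 CPM (519 to 551) against 738 CPM (654 to 830), a log2 ratio of -0.46 (-0.64 to -0.28), which is under the 2-fold threshold. S100a8 was at 167 and 210 CPM (-0.33, -0.66 to 0.02). The 100 proliferating alveolar macrophage-like cells had 227 CPM of S100a1 against 573 CPM in the others (-1.34, -1.60 to -1.08) and 892 CPM of S100a10 against 515 CPM (0.79, 0.65 to 0.93), while S100a8 did not differ beyond counting error (0.14, -0.16 to 0.43). S100a10 was also higher in proliferating than in other C1q macrophage-like cells, at 1344 against 741 CPM (0.86, 0.72 to 0.99).

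The partner and receptor lists were read alongside. Of 7 annexin and scaffold genes, 4 of 5 tested were called higher in effector-like T cells, against 21.0% of all genes tested: Anxa1 (4.44), Ahnak (3.17), the large scaffold that binds the S100A10 and annexin A2 complex, Anxa2 (3.45) and Anxa6 (1.19). Of these, Anxa1, Anxa2 and Ahnak were under 50 CPM in naive-like cells and were tested only through the effector-like group. In Hopx-positive epithelial-like cells 2 of 6 tested were called higher, Anxa5 (1.30) and Ahnak (1.35), against 4.33% of all genes tested. Among the 7 receptor genes, Ager, which encodes RAGE and is itself an ATI gene, was higher in Hopx-positive cells, at 2520 against 649 CPM (1.96, 1.87 to 2.05), and Bsg was higher in effector-like T cells (1.23). Among 7 intracellular targets, Capn2 was at 72.1 against 34.2 CPM in Hopx-positive and Hopx 0 cells and passed the 50 CPM filter only through the former, and no other target was called in these 2 comparisons. Of 5 granulocyte genes, Lcn2, which encodes the iron-scavenging lipocalin 2, was lower in Hopx-positive cells, at 433 against 1356 CPM (a log2 ratio of -1.65).

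Genes with the most similar pattern over the 16 types were listed for each member by the Pearson correlation of log2(CPM + 10), among 6268 genes outside the gates. These values describe 16 sums from the same matrix and carry no test. S100a8 and S100a9 were each other's nearest gene (0.96), followed by G0s2 and Ngp for S100a8 and Ngp and Slfn4 for S100a9. S100a6 was nearest to S100a4 (0.71), then to Cnn2 and Stx11. S100a4 was nearest to Map3k14 (0.83), Arl5c and Gpr132, S100a1 to Mgat4b (0.89), Renbp and Myof, and S100a11 to Jdp2 (0.80), Atg3 and Adam8. S100a10 was nearest to Esyt1 (0.84), Rps23 and Sbf1, and S100a13 to 2210016L21Rik (0.83), Sugt1 and Marveld1.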

How the data were processed

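Cells from microdissected lung tumors of 4 mice were sorted for viability and sequenced as 10x Genomics 3′ v3 libraries. The authors made the deposited UMI counts with Cell Ranger 3.0.2 on mm10 with the reporter sequences added, and the file holds raw counts of 31055 features in 20351 cells (lowest total 500 UMIs). Cells with at least 200 genes and under the 98th percentile of genes (2713) and mitochondrial share (13.4%) were kept. Doublets were left in beside the gate's lead rule. As an alternative, 210 of 20299 cells (1.03%) called by Scrublet were removed. UMIs were summed per gate and divided by the gate total, with no length scaling. Between states, a gene was tested at 50 CPM or more in either group and called at 2-fold with an exact interval off 0. To compare shares of cells, each cell was thinned to 1000 UMIs and shallower cells were left out. Python 3.11.15, numpy 2.4.6, scipy 1.17.1, pandas 2.3.3 and scanpy 1.11.5 were used, and the ratio interval was tested on simulated data. Named genes are the 8 members, the genes of the partner, receptor, target and granulocyte lists, and the 3 genes most correlated with each member. The members and lists were chosen with earlier results of these data known. The neutrophil genes of the free-RNA check and the leukocyte genes used to leave out epithelial-like cells are named beside their results. Part of the genotype shared by all mice and part of a T-cell marker list are not reported here.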

Additional observations from a re-analysis of the deposited data

How the results depend on the processing

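Among Hopx-positive over Hopx 0 epithelial-like cells, the number of S100 genes called higher was 1 instead of 2 with at least 500 genes, without upper caps and without a lead between gates. The number called lower was 1 with 95th percentile caps and 2 without a lead, instead of 0. In ATII-low over ATII-high cells the number called higher was 4 instead of 7, both without a lead and with leukocyte-UMI cells left out. S100a8 and S100a9 lost the call in both, S100a13 (0.96) without a lead and S100a4 with leukocyte-UMI cells left out. In monocyte-like cells the number called higher was 3 instead of 1 at 1.5-fold. For T-like cells the log2 ratio of S100a9 was 0.45 without Scrublet calls, under the 2-fold threshold. The log2 ratio of S100a8 to S100a9 in alveolar macrophage-like cells was 2.68 without a lead, against 4.10. B-like cells with an S100a8 UMI were 3.91% at 2000 UMIs and 4.16% unthinned, and with an S100a9 UMI 2.08% at 500 UMIs and 4.35% unthinned. Ratios with an interval off 0 that changed sign were, for Hopx, S100a4 (1.59 with at least 3 markers, 2.60 without leukocyte-UMI cells), S100a8 (1.09 without leukocyte-UMI cells) and S100a10 (-0.016 thinned before the split), for T-like cells S100a8 (-0.36 with a 10-fold lead, -0.37 without Scrublet calls, -0.11 with every cell weighted alike) and for ATII S100a8 (-0.15 without a lead). The cause was not tested. Of the ratios between states recomputed under an alternative, 332 stayed inside the interval printed for the main setting and 60 moved beyond it with no change of a called direction. The leukocyte, ATII and rich-cell alternatives were chosen after seeing the data. No paired analysis was possible because the cells carry no mouse, and leaving out a mouse could not be run for the same reason.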

Other observations

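Other S100 genes, which are not among the 8, had narrow patterns. S100g, encoding calbindin-D9k, was at 938 CPM (907 to 970) in epithelial-like cells and S100a14 at 95.4 CPM (85.6 to 106). S100a16 was at 354 CPM (335 to 374) in endothelial-like and 111 CPM in stromal-like cells, and S100b at 182 CPM (144 to 226) in stromal-like cells. In ATII-low cells S100a14 was at 267 CPM, against 60.0 CPM in ATII-high cells (2.15, 1.84 to 2.46).

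Within the endothelium, S100a10 was at 170 CPM in 73 aerocyte-like and 347 CPM in 629 general capillary-like cells (-1.03, -1.60 to -0.50). S100a8 and S100a9 were at 102 and 137 CPM in 249 Vwf-positive cells, against 21.4 and 27.8 CPM in general capillary-like cells. Of all endothelial-like cells, 5 held 51.0% of the UMIs of these 2 genes, and the difference was not recomputed without them.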
